A study of Mus musculus with 4 samples.

Results

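Gene expression was compared between a pair of mouse melanoma cultures that had passed through the same number of injection rounds and had been recovered from different organs, B16-RIIL from lung metastases and B16-RII from lymph node metastases. The comparison used the 2 arrays whose labels name these cultures, of 4 labelled arrays in all, and took in all 33012 probes that were not controls. B16 is a melanoma line of the C57BL6 mouse strain. Cells of its F1 subline, B16F1, labelled B16 here, were injected into the back skin of C57BL6 mice, the tumour was taken out 14 to 17 days later, and cells from lymph node metastases were grown as the B16-RI line, which had passed through 1 injection round. B16-RI cells were injected in the same way for round 2, and lymph node metastases gave B16-RII while lung metastases gave B16-RIIL. All 4 lines were grown in DMEM with 20% fetal bovine serum before RNA was taken, no line carried an engineered change, and each RNA was pooled from 2 passage numbers of its line. The metastases were thus measured as cultures and not as tissue, and how many mice each line came from is not given in the sources used here. The deposited table also holds columns of second arrays, which match no labelled sample and were not used. Each line thus had 1 labelled array, so no difference below has a replicate check, no test was run, and a single culture cannot be told apart from the organ it came from. Because the RNA came from whole cultures, fewer cells of a type and less RNA per cell cannot be told apart either.

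Melanoma cells leave a primary tumour through lymphatic vessels, which drain to the nearest lymph nodes, or through the blood, whose first capillary bed after the heart lies in the lung. Growth in either organ calls on adhesion receptors, matrix-cutting proteases and chemokine receptors, and on survival in a tissue with its own oxygen supply and immune cells. B16 cells keep much of the pigment cell programme, in which the transcription factor Mitf switches on the enzymes that make melanin.

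The arrays were close in quality, with 14756 probes detected on B16-RII and 14855 on B16-RIIL, a probe being detected where its signal stood at least 3 times above the noise (S/N) and its error flag was 5000 or less. Both arrays detected 13018 probes, 1837 were detected on B16-RIIL alone and 1738 on B16-RII alone, and 16419 on neither. Detection on 1 of them alone refers to this pair of arrays, here and below, and such a probe may also be detected on B16 or B16-RI. Values below are relative signals, set so that 100 is the median on that array of the probes detected on all 4 arrays, with the median taken separately in each of the 2 probe sets to which the authors applied different scaling constants. A relative signal can be followed from array to array for a probe but not compared between probes.

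Both cultures carried the transcripts that define pigment cells, at almost equal signal. Dct, the dopachrome tautomerase of melanin synthesis, had a relative signal of 12190 on B16-RII and 12200 on B16-RIIL, a log2 difference of 0.00. Pmel, which forms the fibrils on which melanin is laid down, was at 5740 and 5837. Tyr, the rate-limiting enzyme of melanin synthesis, was at 60.9 and 67.2, a difference of 0.14 whose sign depended on the scaling, since it was -0.27 in the deposited values. Mitf was at 31.2 on B16-RII and 27.1 on B16-RIIL, or -0.21 on the log2 scale. Of 14 genes of melanin synthesis and the melanosome with a probe, the 13 detected on both arrays had differences between -0.57 and 0.31 and none reached 2-fold. The other gene of that list, Slc7a11, the cystine transporter that sets the supply of cysteine for red pigment, was not detected on B16-RII, where its S/N of 2.96 lay just under the limit, and was at least 3.30-fold higher on B16-RIIL, at a relative signal of 38.4 against 11.7. Among the genes that regulate pigment cells, none of 12 was called, and the largest differences were those of Kit, Mc1r and Mrap. Kit, the receptor of stem cell factor, was at 44.5 and 87.6, and Mc1r, a melanocortin receptor, at 142 and 264. Mrap, an accessory protein of melanocortin receptors, was at 104 and 189. The differences of Kit, Mc1r and Mrap came to 0.98, 0.90 and 0.86 log2 units and stayed below the 2-fold limit. By other scalings Kit reached up to 1.07 and Mc1r up to 1.06, past the limit. Spp1, which encodes the secreted matrix protein osteopontin, was at 401 on B16-RII and 491 on B16-RIIL, a difference of 0.29, and its second probe differed by 0.18.

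Genes that mark the cells of the 2 organs were mostly not detected on either array. Of all 33012 probes 16419 were also detected on neither, so these counts alone do not show that other cells were absent. The summed relative signals given for these lists add all members with a probe, detected or not, are dominated by the probes with the highest signal, and only set 1 array beside the other. Of 12 lung epithelium markers 9 were detected on neither array, among them the surfactant genes Sftpb, Sftpc and Sftpd, and the summed relative signal of the list was 70.5 on B16-RII and 74.1 on B16-RIIL. Scgb1a1, the secretoglobin of club cells, passed the detection limit on B16-RIIL alone and was at least 2.11-fold higher there, at 11.8 against 5.57. On B16 it was at 8.60, undetected. Of 8 markers of lymph node stroma and lymphatic endothelium 7 were detected on neither array, Lyve1, Prox1 and Ccl19 included, and the list summed to 50.3 and 54.3. Macrophage markers were not detected in 11 of 12 cases, with sums of 56.2 and 60.0. The lymphocyte list summed to 439.6 and 444.8, Cd79a, a subunit of the B cell receptor, was at 401 and 399.9, and 5 of its 9 genes were detected on neither array. Cd3g and Cd4, subunit and coreceptor of the T cell antigen receptor, were detected on B16-RIIL alone, with S/N of 3.77 and 3.74. They were at least 3.33-fold and 2.69-fold higher there. Cd3g was not detected on B16 or B16-RI. Cd4 was at 5.78 on B16, undetected, and at 6.03 on B16-RI, detected, against 4.81 on B16-RIIL. Lck, a kinase of T cell receptor signalling, was detected on both arrays and was lower on B16-RIIL, at 10.6 against 20.0, a difference of -0.91 that passed 2-fold by other scalings, at -1.04 to -1.33. Of 9 fibroblast markers 6 were detected on neither array and the list summed to 70.4 and 117.5. Of the 2 detected on both arrays 1 differed by 0.03 log2 units. The other was the collagen chain Col1a2, at 35.8 and 75.7, and at 74.0 on B16-RI. Lum, a proteoglycan of connective tissue, was detected on B16-RIIL alone, at least 2.69-fold higher with an S/N of 3.58. It was at 9.69 on B16-RIIL and at 8.80, undetected, on B16. Of 9 blood vessel markers 7 were detected on neither array, the list summed to 598.5 and 577.6, and Pecam1, an adhesion molecule of endothelium, was detected on both and was 2.55-fold lower on B16-RIIL at an S/N of 3.95. The part of other cells in the differences below was not tested.

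Most transcripts that both cultures carried had similar signals. Of the 13018 probes detected on both arrays, 97.0% lay within 2-fold and 86.8% within 1.5-fold, and the quartiles of the differences between B16-RIIL and B16-RII were -0.24 and 0.22 log2 units. The spread depended on brightness. Of 4 equal groups of these probes ordered by signal, 91.8% of the dimmest lay within 2-fold and 99.4% of the brightest did. The median difference was 0.11 in the dimmest group and -0.09 in the brightest, so that 1 constant did not align the arrays over the whole range.

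A probe was called higher or lower on B16-RIIL when it differed at least 2-fold and was detected on the brighter array. By this rule 1478 probes (4.48% of all probes) were higher on B16-RIIL and 1103 (3.34%) were lower. Of the called probes 57.3% were higher, with a Wilson 95% interval of 55.4 to 59.2 that covers counting error alone. It counts probes as independent, which probes sharing 2 arrays are not, and leaves out the choice of scaling. The balance depended on the scaling. In the deposited values, where the 2 probe sets are offset against each other between these arrays by medians of 0.06 and -0.41, 1272 probes were higher and 1560 lower, so that 44.9% were higher. Scaling to the median gave 49.6% and quantile normalization 52.6%. For 1236 of the probes called higher and 955 of those called lower the dimmer array did not detect the probe, so the fold is a lower bound for 83.6% and 86.6% of calls. Among probes detected on both arrays 242 (1.86%) were higher and 148 (1.14%) lower. With 1 probe per gene, the brightest, 616 of 15374 genes (4.01%) were higher and 463 (3.01%) lower, and of the 7970 genes detected on both arrays 123 (1.54%) were higher and 74 (0.928%) lower.

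**Figure D1:**
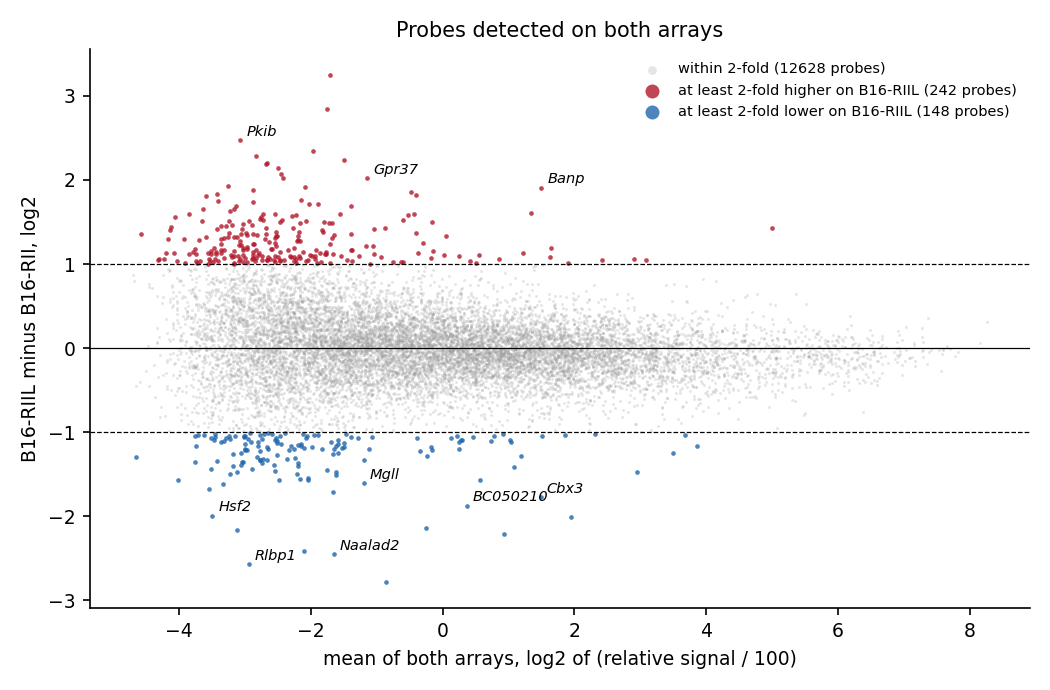
Each point is 1 of the 13018 probes detected on both arrays, with the mean of both arrays on the x axis (log2 of relative signal over 100) and the log2 difference between B16-RIIL and B16-RII on the y axis. Dashed lines mark 2-fold, 242 probes lie on or above the upper line and 148 on or below the lower line, and the points spread most at low signal.

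Among probes with a gene name, the 10 genes with the largest measured differences towards B16-RIIL had many functions. Probes without a name, some with larger differences, were passed over. Pkib, an inhibitor of cyclic AMP-dependent protein kinase, was at 5.04 on B16-RII and 27.9 on B16-RIIL, 5.54-fold higher. Amhr2, the receptor of anti-Müllerian hormone, was at 6.41 and 31.1, 4.86-fold higher, and was not detected on B16 or B16-RI. Vmn1r42, a vomeronasal receptor, Spag1, an assembly factor of ciliary dynein, and Adrb3, the beta-3 adrenergic receptor, were 4.56-fold, 4.41-fold and 4.07-fold higher. For these 5 genes the S/N on B16-RII was between 3.11 and 7.45, close to the limit for all but Amhr2. Kctd12, an auxiliary subunit of GABA-B receptors, was 4.19-fold higher on B16-RIIL, at 37.3 against 8.91, and the B16 array was at 40.5. Cd74, the invariant chain of MHC class II, was 3.68-fold higher at 26.0 against 7.07, with B16 at 35.6 and B16-RI at 18.5, and its S/N on B16-RII was 3.08. For both genes B16-RIIL lay closer to the parental line than B16-RII did. Gpr37, an orphan receptor related to the endothelin receptors, followed another order, with no detection on B16, 14.4 on B16-RI, 22.5 on B16-RII and 91.5 on B16-RIIL, a step of 4.07-fold between the lines of round 2. Tada3, an adaptor of histone acetyltransferase complexes, was 3.78-fold higher.

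Banp, which encodes a DNA-binding protein of the nuclear matrix, had the highest S/N of the 10. B16 stood at 537, B16-RI at 134, B16-RII at 146 and B16-RIIL at 546.5, with S/N of 34.99 and 74.2 on the arrays of round 2, and B16-RIIL was 3.75-fold above B16-RII. The lines recovered from lymph nodes thus had the low values and the parental and lung lines the high ones. Banp had 1 probe. The next genes below these 10 were Mcoln3, a lysosomal cation channel, at 1.86 log2 units, and Cntrob, a centriole protein, at 1.74.

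The genes with the largest measured difference in the other direction were led by probes that stood out on B16-RII. Rlbp1, a carrier of visual pigment retinaldehyde, was at 31.7 on B16-RII and 5.35 on B16-RIIL, 5.93-fold lower, and at 8.37 on B16-RI. Naalad2, a peptidase of the glutamate carboxypeptidase family, was at 74.3 and 13.6, 5.45-fold lower. Uqcrc1, a core subunit of respiratory complex III, was at 53.9 and 10.1, 5.34-fold lower. None of the 3 was detected on B16, and of these only Rlbp1 was detected on B16-RI. Nt5c2, a purine nucleotidase, Hsf2, a heat shock transcription factor, and Hlx, a homeobox factor, were 4.49-fold, 3.98-fold and 3.07-fold lower. Vmn1r73, a vomeronasal receptor, was 2.97-fold lower. For these 7 genes the S/N on B16-RIIL was between 3.19 and 4.29, close to the limit of detection. Another group stood apart on the B16-RIIL side. Cbx3, the heterochromatin protein HP1 gamma, was at 523 on B16, 456 on B16-RI, 518.5 on B16-RII and 151.5 on B16-RIIL, 3.42-fold lower. Its other 2 probes differed by 0.31 and -0.79, so the gene as a whole had no single direction. BC050210, a transcript with no role assigned here, was at 257, 284, 247 and 67.3 in the same order, 3.67-fold lower on B16-RIIL. Mgll, the lipase that splits monoacylglycerols and ends the action of an endocannabinoid, was at 206, 64.8, 75.9 and 25.03, 3.03-fold lower. The next genes below these 10 were Tlr1 at -1.56 and Ccdc88c at -1.54.

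**Figure D2:**
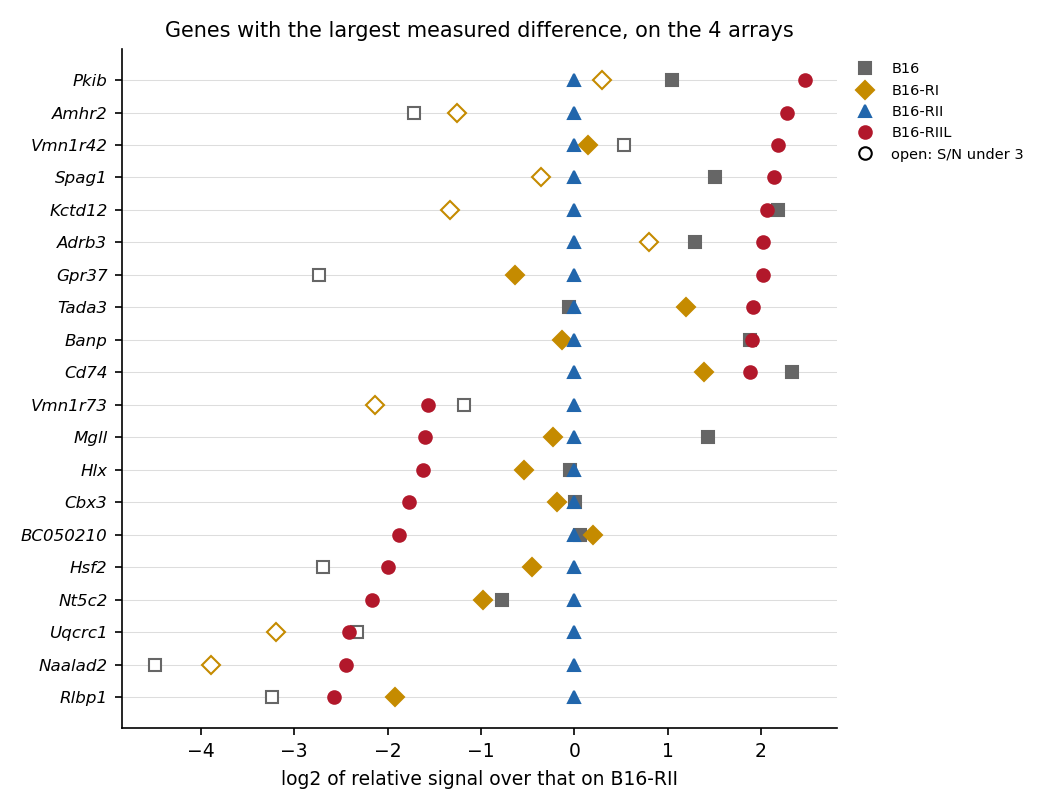
The 10 genes with the largest measured difference in each direction are rows, and the x axis gives the log2 of the relative signal on each of the 4 arrays over that on B16-RII, with open symbols where S/N was under 3. B16-RIIL lies between 1.88 and 2.47 for the upper 10 and between -2.57 and -1.57 for the lower 10, while the B16 and B16-RI symbols fall on either side.

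Promoters of 4 of these genes are printed because they hold the letters CATGTG, the form of the E-box that Mitf binds in pigment genes, while the genes behaved differently, Tyr and Dct being close to level between the cultures and Rlbp1 and Mgll lower on B16-RIIL. They are the 250 bases before the start of each gene in RefSeq, build GRCm38.p6, in the direction of transcription, with CATGTG and TATAAA on either strand in capitals.
Tyr, chr7:87493513-87493762, minus strand: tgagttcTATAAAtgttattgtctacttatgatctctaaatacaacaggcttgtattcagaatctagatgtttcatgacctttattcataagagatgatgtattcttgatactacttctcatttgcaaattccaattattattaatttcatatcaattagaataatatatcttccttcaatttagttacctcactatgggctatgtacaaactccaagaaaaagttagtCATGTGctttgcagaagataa
Dct, chr14:118052247-118052496, minus strand: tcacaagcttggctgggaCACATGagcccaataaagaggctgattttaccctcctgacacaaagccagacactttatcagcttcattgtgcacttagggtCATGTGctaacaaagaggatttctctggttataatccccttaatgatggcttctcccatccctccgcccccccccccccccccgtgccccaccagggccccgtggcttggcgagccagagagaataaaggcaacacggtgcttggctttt
Rlbp1, chr7:79387028-79387277, minus strand: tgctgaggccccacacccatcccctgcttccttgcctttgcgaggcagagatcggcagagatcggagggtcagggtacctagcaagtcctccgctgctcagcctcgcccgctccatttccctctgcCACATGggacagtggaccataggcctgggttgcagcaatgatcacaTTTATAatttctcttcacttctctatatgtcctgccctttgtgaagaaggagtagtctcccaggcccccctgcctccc
Mgll, chr6:88724162-88724411, plus strand: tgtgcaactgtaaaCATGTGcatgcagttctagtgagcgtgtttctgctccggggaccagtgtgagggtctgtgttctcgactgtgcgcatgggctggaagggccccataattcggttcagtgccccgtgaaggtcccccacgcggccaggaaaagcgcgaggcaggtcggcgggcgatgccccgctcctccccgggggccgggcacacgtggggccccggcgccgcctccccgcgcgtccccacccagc
The letters occur in 1 place in the windows of Tyr, Rlbp1 and Mgll and in 2 places in that of Dct. A match on the other strand reads CACATG, as in Rlbp1 and in 1 of the places of Dct. Among the 40 places of the genes with the largest measured difference or the clearest detection on 1 side, promoters were found for 13 genes higher and 17 lower on B16-RIIL. CATGTG was in 0 of the 13 and in 4 of the 17, the others being Naalad2 and Lrrc4b, against 12.2% of 27025 promoters. TATAAA was also in 0 and 4, against 13.0%. TGANTCA, the letters bound by AP-1, was in 2 and 0, against 6.87%, and a motif of interferon regulatory factors in 1 and 0, against 3.04%. Both strands were searched and none of these counts is a test.

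The genes that 1 culture lacked at the limit of detection were led by a chemokine. Cxcl11, an interferon-induced ligand of the receptor Cxcr3, stood at 89.5 on B16-RIIL, where its S/N was 43.1. On B16, B16-RI and B16-RII it was not detected, with relative signals of 2.61, 5.19 and 2.28, and it was at least 39.3-fold higher on B16-RIIL than on B16-RII. The array held 1 probe for it. Another ligand of the same receptor, Cxcl10, was at 1400 on B16-RII and 968 on B16-RIIL, a difference of -0.53 that was not called. Cxcl9 was not detected on either array, nor was Cxcr3. Foxi1, a forkhead transcription factor, was not detected on the other 3 arrays either and was at least 16.9-fold higher on B16-RIIL, at 39.8 against 2.35. Vav1, an exchange factor for Rac known from blood cells, was at least 5.81-fold higher, and Cadps2, a priming factor of dense-core vesicles, at least 5.25-fold. Ddit4, a stress-induced brake on the mTOR pathway, was at 99.9 on B16, 15.7 on B16-RI, 14.7 on B16-RII and 77.2 on B16-RIIL, at least 5.27-fold higher than on B16-RII. Cdkn1c, the cell cycle inhibitor p57, was at least 4.23-fold higher, at 29.1 against 6.88. The remaining genes of this kind, Rell2, Capn1, Bcl2 and Zfyve26, were at least 2.02-fold to 4.23-fold higher. Bcl2, the founding inhibitor of apoptosis, had a second probe that neither array detected, and Zfyve26 missed the 2-fold limit after quantile normalization, at 0.99.

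The 10 genes with the highest S/N among those detected on B16-RII and not on B16-RIIL had S/N of at most 14.1 on B16-RII. Rbm8, listed with the RNA-binding proteins, was at least 6.97-fold lower on B16-RIIL, at 17.7 against 2.54. Tlr1, a toll-like receptor, had 2 probes that went the same way, 1 at least 6.65-fold lower, at 34.2 and 5.13, and 1 detected on both arrays and 2.94-fold lower, at 38.1 and 13.0. Neither Tlr1 probe was detected on B16 or B16-RI. Smad9, a mediator of BMP signals, and Lcp1, the actin-bundling protein L-plastin, were at least 4.53-fold and 4.34-fold lower. Lrrc4b, a synaptic adhesion protein, Zfp418, a zinc finger protein, Epop, a partner of Polycomb complexes, Timmdc1, an assembly factor of respiratory complex I, Kcng4, a potassium channel subunit, and Ank2, ankyrin-B, were at least 2.48-fold to 3.42-fold lower. The second probe of Ank2 was brighter and detected on both arrays, at 84.8 and 100.1, and differed by 0.24 in the other direction. That of Epop, also not detected on B16-RIIL, was at least 1.75-fold lower and not called.

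The 25 gene lists, the pigment cell and cell type marker lists above included, held 433 genes, of which 390 had a probe. Of these 24 (6.15%) were higher on B16-RIIL and 5 (1.28%) lower, beside 4.01% and 3.01% of all 15374 genes. Of these 29 Ccl5, Car9, Fbp2, Col1a2, Myc and Pecam1 were detected on both arrays, and the fold of the others is a bound.

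Among 26 chemokines and chemokine receptors 4 were higher and 1 lower, and 17 were detected on neither array. Ccl5, which draws T cells and monocytes, was at 36.0 on B16, 26.1 on B16-RI, 40.0 on B16-RII and 120 on B16-RIIL, 3.0-fold higher, the largest measured difference of the list. Besides Cxcl11, Cxcl12 and its scavenger receptor Ackr3 were detected on B16-RIIL alone, at least 2.38-fold and 3.81-fold higher, with S/N of 4.12 and 3.15. Ackr3 was also detected on B16-RI, where it stood at 13.2 against 8.68 on B16-RIIL. Cxcr4, the signalling receptor of Cxcl12, was not detected on B16-RII or B16-RIIL. Cxcr5, the receptor that guides cells into lymph node follicles, was detected on B16-RII alone, at least 3.27-fold lower on B16-RIIL. Its S/N on B16-RII was 3.66, and it was at 7.12 there against 6.13, undetected, on B16-RI. Of 22 genes of the interferon response none was called, and the 11 detected on both arrays lay between -0.29 and 0.84, the highest being Ifitm3. Tap1, which carries peptides to MHC class I, was at least 2.00-fold higher on B16-RIIL, and missed the limit by quantile normalization, at 0.96, and by median scaling, at 0.99. B2m, the shared subunit of MHC class I, was at 1051 and 1082.

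The 5 adhesion and shape genes that were called were 2 of 21 cell shape genes, 2 of 16 adhesion molecules and 1 of 15 integrins. All 5 were detected on B16-RIIL and not on B16-RII, and all but Snai2 were also detected on B16. Epcam, an epithelial adhesion molecule, and Cd82, a tetraspanin known as a metastasis suppressor, were at least 5.32-fold and 5.41-fold higher. Cdh1, which encodes E-cadherin, was at least 3.38-fold higher, and Snai2, a repressor of E-cadherin, at least 4.85-fold, at 11.2 against 2.30. For Epcam, Cd82 and Cdh1 the B16 array was at 9.97, 17.9 and 7.95, near their values on B16-RIIL of 9.54, 17.3 and 7.36. Itgb7, the integrin chain of lymphocytes that home to the gut, was at least 3.02-fold higher, at 12.7 against 4.21, with B16 at 18.4 and B16-RI at 11.7. Other genes of these lists were closer to level, with Cdh2, which encodes N-cadherin, at 85.3 and 98.0, the intermediate filament Vim at 20800 and 17270, and the integrin chain Itgb1 at 1352 and 1562. Of 20 matrix genes 1 was called, Col1a2, at 41.2 on B16, 74.0 on B16-RI, 35.8 on B16-RII and 75.7 on B16-RIIL, 2.11-fold higher, and its partner chain Col1a1 was at 10.8 and 10.9.

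Of 27 matrix proteases and inhibitors 2 were higher and 1 lower on B16-RIIL. Mmp16, a membrane-bound metalloproteinase, was at least 3.88-fold higher and Plat, the tissue plasminogen activator, at least 4.62-fold, with S/N of 3.81 and 6.45. Mmp10 was at least 2.00-fold lower, and missed the limit in the deposited values and by quantile or upper quartile scaling, at -0.91 to -0.98. Mmp14, a membrane-bound collagenase, was at 2711 and 2801. Of 19 vascular and lymphatic ligands 3 were detected on B16-RIIL alone, namely Fgf2 at least 4.03-fold higher, Pdgfd at least 3.37-fold and Fgf1 at least 2.28-fold. Their S/N there was 4.66, 4.51 and 3.28, and Fgf1 had 2.56 on B16-RII, just under the limit. The lymphatic ligand Vegfc was at 107.5 and 136, and Vegfa at 16.8 and 25.4. From a list of genes tied to lung colonization in other tumours, Id3, an inhibitor of bHLH factors, was at least 5.42-fold lower on B16-RIIL, at 3.68 against 19.9, while Id1 was at 51.7 against 31.6 and Id2 at 1355 against 1528.

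In the signalling and metabolic lists few genes were called. Myc, the growth-promoting transcription factor, was at 803 on B16, 657 on B16-RI, 518 on B16-RII and 1083 on B16-RIIL, 2.09-fold higher with S/N of 60.3 and 64.1. Etv5, a transcription factor of the MAP kinase pathway, was at least 4.53-fold lower, at 1.82 against 8.24, while Etv4 was at 32.8 and 30.7 and Dusp6, another target of that pathway, at 214.5 and 242. Of 21 genes of hypoxia and glycolysis 2 were higher, Car9, a carbonic anhydrase of the cell surface, at 52.8 and 125, 2.37-fold, and Fbp2, a fructose bisphosphatase, at 29.9 and 79.8, 2.67-fold. Car9 was at 0.83 log2 units in the deposited values, under the limit. The hypoxia target Pdk1 was at 379 on B16-RII and 190 on B16-RIIL, just under the limit and past it by other scalings, at -1.04 to -1.41. Ldha was at 14040 and 14460, so the list had no common direction, with a median of -0.16 against all genes. None of 27 cell cycle genes, 20 genes of sterol and fatty acid synthesis or 19 growth factor receptors was called. Insig1, which holds back sterol synthesis, was at 456 and 232, a difference of -0.98 that passed 2-fold by other scalings, at -1.04 to -1.40. Cdkn1a, the cell cycle inhibitor p21, was at 184 and 360, or 0.97, and up to 1.11 by other scalings. The list medians of all 25 lists are shown in the plot of list members. The widest were those of the fibroblast and blood vessel markers, which rest on 2 genes each.

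**Figure D3:**
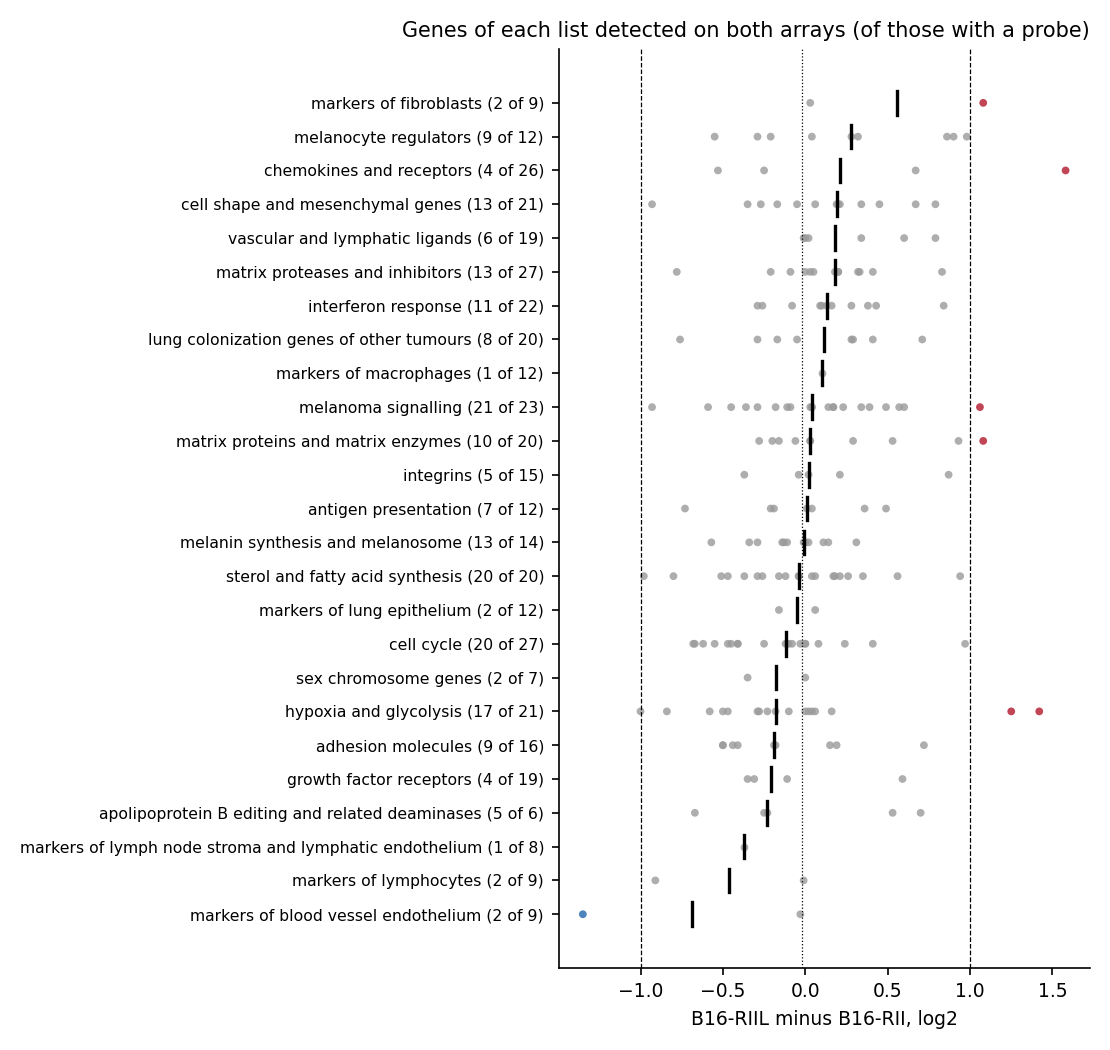
Points are genes detected on both arrays, 1 row per list, placed by the log2 difference between B16-RIIL and B16-RII, with red for genes called higher, blue for genes called lower and a black bar for the list median. The dotted line is the median of all 7970 genes, -0.02, and most list medians lie within 0.3 of it.

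The broadest difference between the cultures lay along whole chromosomes. Among 7716 genes that were detected on both arrays and have a chromosome in the RefSeq table, genes of chromosome 8 were higher on B16-RIIL by a median of 0.31 log2 units against all genes, or 1.24-fold. Of its 440 genes 361, or 82.0%, lay above the median of all genes, and the quartiles were 0.09 and 0.54. Chromosome 2 had a median of -0.18, with 26.0% of 608 genes above the median of all genes, and chromosome 6 a median of -0.16, with 29.7% of 404 genes above. The medians of the other 17 chromosomes lay between -0.04 and 0.06, with 42.4% to 56.3% of their genes above.

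**Figure D4:**
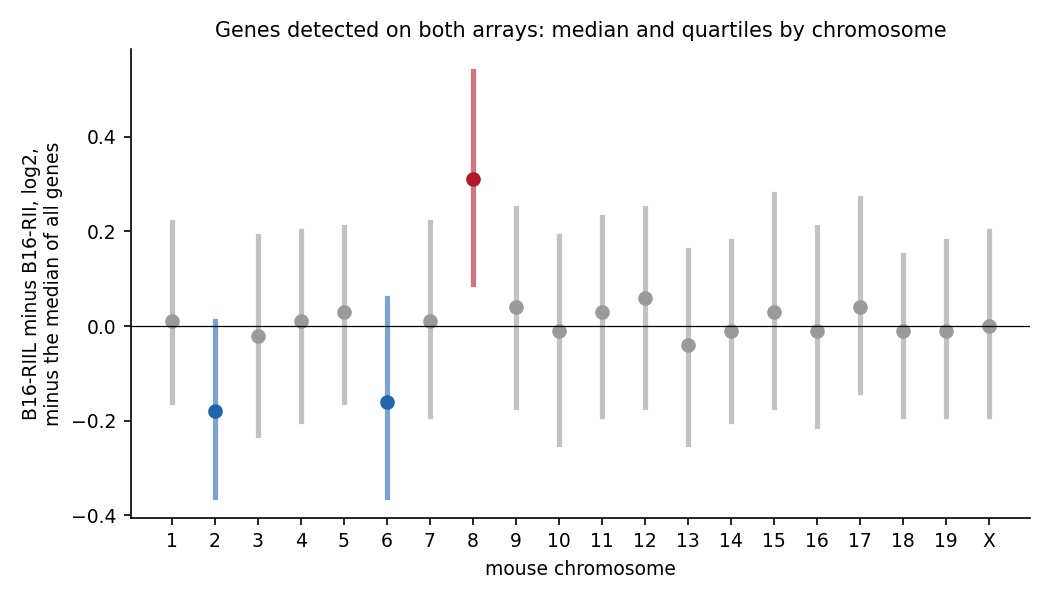
Points are the median and bars the quartiles of the log2 difference between B16-RIIL and B16-RII for the genes of each chromosome, less the median of all genes. Chromosome 8 stands at 0.31, chromosomes 2 and 6 at -0.18 and -0.16, and the others between -0.04 and 0.06.

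The shift ran along the length of chromosome 8. When the genes of each chromosome were cut in order into 8 parts of equal gene number, the parts of chromosome 8 had medians between 0.26 and 0.39, those of chromosome 2 between -0.23 and -0.13, and those of chromosome 6 between -0.33 and -0.05. The 136 parts of the other chromosomes lay between -0.16 and 0.18. A running median over 31 genes stayed between 0.10 and 0.58 on chromosome 8, against -0.22 and 0.24 on the others. On chromosome 6 its highest value, 0.01, was at the start of the gene order and its lowest, -0.39, at the end, with no steady slope between them.

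**Figure D5:**
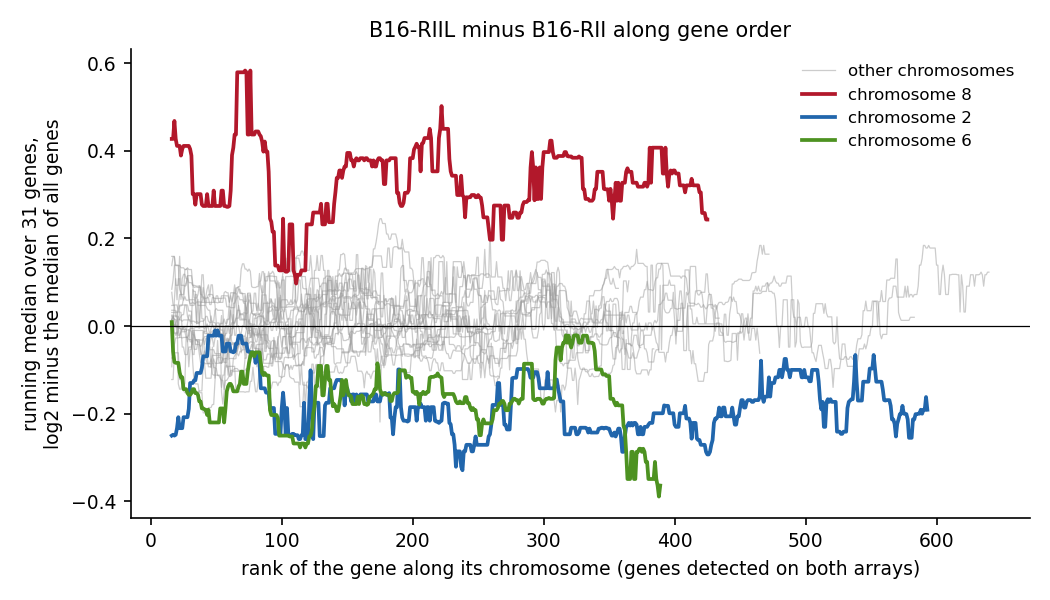
Lines give the running median over 31 genes of the log2 difference between B16-RIIL and B16-RII, less the median of all genes, against the rank of the gene along its chromosome. The line of chromosome 8 stays between 0.10 and 0.58, those of chromosomes 2 and 6 reach -0.33 and -0.39, and the grey lines of the other chromosomes lie between -0.22 and 0.24.

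The chromosome medians were alike in the 2 probe sets, at 0.29 and 0.34 for chromosome 8, -0.18 and -0.20 for chromosome 2, and -0.16 and -0.17 for chromosome 6. They were also alike over brightness for chromosome 8, with 0.34, 0.35 and 0.33 in the dim, middle and bright groups when genes were split into 3 by signal, and for chromosome 2, with -0.16, -0.22 and -0.18. For chromosome 6 they were -0.27, -0.16 and -0.11. Against B16, over the 7089 genes detected on all 4 arrays, the median of chromosome 8 was 0.02 on B16-RI, 0.07 on B16-RII and 0.36 on B16-RIIL. For chromosome 2 the values were 0.00, -0.01 and -0.21, and for chromosome 6 they were -0.02, -0.04 and -0.18. These comparisons share the B16 array with each other and the B16-RIIL array with the one above, and in them it was B16-RIIL that stood apart. No DNA was measured.

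Among these 7716 genes 118 (1.53%) were called higher and 70 (0.907%) lower, and chromosome 8 held 22 and 3 of them. Its higher genes included Hgsnat, an acetyltransferase of lysosomal heparan sulfate breakdown, at 2184 on B16, 1839 on B16-RI, 1953 on B16-RII and 5237 on B16-RIIL, 2.68-fold higher. Jund and Junb, subunits of the transcription factor AP-1, were 2.80-fold and 2.36-fold higher, at 50.5 against 18.1 and at 15.0 against 6.35. Dnajb1, a cochaperone of Hsp70, was at 213 and 451, and missed 2-fold in the deposited values, at 0.67, and by median and upper quartile scaling, at 0.85 and 0.96. Herpud1, a factor of protein degradation at the endoplasmic reticulum, was at 263 and 529.5. Gdf15, a stress-induced cytokine, was at 88.5 on B16, 10.6 on B16-RI, 41.4 on B16-RII and 84.6 on B16-RIIL, 2.04-fold higher. Fanca, a DNA repair protein, was at 81.6 and 174, and at 163 on B16. Adrb3 and Banp, described above, had the largest differences of the 22, and Cdh1, Plat and Mc1r also lie on chromosome 8. When each chromosome was centred on its own median, chromosome 8 had 5 genes called higher in place of 22 and 6 called lower in place of 3.

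On chromosome 2, 7 of 608 genes were called lower on B16-RIIL, among them Nfe2l2, the regulator of the oxidative stress response, at 19.6 and 9.02, and Sdc4, a heparan sulfate proteoglycan, at 120 and 51.6. The 5 genes called higher on that chromosome were led by Entpd2, an ecto-nucleotidase, at 17.6 and 46.1, or 0.97 in the deposited values. With each chromosome centred on its own median, chromosome 2 had 11 genes called higher and 4 lower, and chromosome 6 had 10 and 5, a move that follows from raising all genes of a chromosome by its own median. On chromosome 6, 8 of 404 genes were called lower and 6 higher. The 8 included Cbx3, Mgll, Mgst1, a membrane glutathione transferase at 119 on B16, 15.9 on B16-RI, 35.5 on B16-RII and 13.4 on B16-RIIL, and Lrig1, an inhibitor of growth factor receptors at 30.7 and 12.4. The 6 included Vmn1r42, Gpr37, Tada3 and Col1a2.

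Probes with high S/N gave few calls. With an S/N of at least 10 on both arrays, a limit chosen after the values were seen, 41 of 9181 probes (0.447%) were higher on B16-RIIL and 40 (0.436%) lower. Of the 32 higher probes with a chromosome 10 lay on chromosome 8, or 31.2%, against 5.68% of all such probes, and of the 18 lower probes 0 did. Besides the genes above, the higher side held Atp1b1, a subunit of the sodium pump, at 42.8 and 129, Kdelr3, a receptor that returns proteins to the endoplasmic reticulum, at 39.0 and 112, Clu, the secreted chaperone clusterin, at 593 and 1227, and Enpp2, the lipid-producing enzyme autotaxin, at 158 and 347. Enpp2 missed 2-fold in the deposited values, at 0.72, and by median scaling, at 0.91. Socs3, an inhibitor of cytokine signals, was at 60.6 and 135. Nnmt, a methyltransferase of nicotinamide, had another order, at 379 on B16, 73.3 on B16-RI, 29.3 on B16-RII and 68.0 on B16-RIIL. The lower side held Srsf5 and Srrm2, proteins of the splicing machinery, at 515 and 253 and at 705 and 348, Wtap, a subunit of the RNA methyltransferase for adenosine, at 410 and 199, and Car6, a secreted carbonic anhydrase, at 2173 and 970. The calls of Srsf5, Srrm2 and Wtap ended in the deposited values, at -0.93, -0.93 and -0.95, by quantile normalization, at -0.85, -0.86 and -0.88, and by upper quartile scaling, at -0.93, -0.92 and -0.95. The second probe of Srsf5 differed by -0.97, and the other probes of Wtap by -0.97 and -0.10. These genes were named after their values were seen.

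Probes of 1 gene often differed in their calls. For 18 genes with a probe detected on both arrays and called higher, 12 of 20 other probes detected on both arrays had the same direction, or 60.0%, and for 7 genes called lower 7 of 8 did, against 62.8% over all 605 genes with at least 2 such probes. None of these other probes was itself called in the same direction. When detection on either array was enough, 2 of 77 other probes of genes called higher were also called higher (2.60%). Of 73 other probes of genes called lower 5 were called lower (6.85%), and 3 in each direction were called the opposite way. Of all 1958 probes of genes with several probes 5.67% were called higher and 4.49% lower. Those 1958 include the called probe with the largest difference of each gene, which the 77 and 73 leave out. The shares therefore cannot be compared directly. The genes called alike by 2 probes were Cep97, a centrosome protein, and Cyp4b1, a cytochrome P450, on the higher side. On the lower side they were Tlr1, the homeobox genes Hoxa9 and Hoxb8, the methylcytosine dioxygenase Tet2 and the methyltransferase Etfbkmt. The probes of Tet2 were at 8.41 and 19.4 on B16-RII and 3.08 and 4.81 on B16-RIIL, and those of Hoxa9 at 11.2 and 18.0 on B16-RII and 4.14 and 8.72 on B16-RIIL. The second Hoxa9 probe missed 2-fold in the deposited values and by quantile and upper quartile scaling, at -0.95 to -0.97.

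The other 2 lines placed the calls on either side. Of the 1478 probes called higher, B16-RIIL was at least 2-fold above all other arrays in 490, or 33.2%, and B16-RII at least 2-fold below all others in 246, or 16.6%, with 35 counted under both. Of the 1103 called lower, B16-RII was at least 2-fold above all others in 296, or 26.8%, and B16-RIIL below all others in 263, or 23.8%, with 21 counted under both. The counts reuse the arrays of the comparison itself. In 896 of the 1478 and 625 of the 1103 the probe was detected on neither B16 nor B16-RI.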

How the data were processed

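RNA of 4 cultured lines was hybridised to 1-colour mouse genome arrays from Applied Biosystems, with 1 labelled array per line. The authors deposited for each of 33012 probes a raw intensity, a normalized intensity, and scores of the analyzer, namely S/N and an error flag. The deposited normalized intensity was found to be the raw intensity divided by 1 of 2 constants per array, for sets of 16524 and 16488 probes; it was not quantile normalized, the method the paper names. Left unused were 16 columns of second arrays that no labelled sample matches, 14 columns computed from those, and 14 columns computed by the authors from the first arrays, holding log2 values and their own ratios. The paper speaks of duplicates, but only 1 sample of each line is labelled.

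The log2 of the normalized intensity was centred in each probe set on its median over the 11604 probes detected on all 4 arrays, with no pseudocount. A call needed 2-fold and detection (S/N of at least 3, flag of at most 5000) on the brighter array. An undetected signal was set to the higher of itself and the lowest detected signal of its array, and the fold is written as at least N-fold. Each gene was represented by its brightest probe over the 4 arrays in the counts per gene, the gene lists and the chromosome values. Genes named for a call not detected on the dimmer array could rest on another probe, as for Ank2 and Tlr1. Genes were named from RefSeq, assembly GRCm38.p6, where 16204 probes were matched, 5839 of them through a synonym, while 17302 probes carry a symbol in the file; 391 probes with several symbols were left unnamed. The file names no genome build, so chromosome and gene order alone were taken from that table. Promoters are RefSeq sequences of the same build.

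Genes were named in the text by a rule: the 10 genes per direction with the largest measured difference, the 10 per direction with the highest S/N among calls not detected on the dimmer array, called members of 25 gene lists, and Mitf, Sox10, Tyr, Dct, Pmel and Spp1 in any case. Sox10 was not matched to a probe. Identifiers without a name were passed over. Genes outside the rule are described as the nearest to a limit, as list members, by chromosome, or as bright calls. Single values of 2 genes are not reported here. The comparison, the lists and the rule were chosen with earlier results of these data known.

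Precision is limited throughout by having 1 array per line. Alternatives were the deposited values, quantile, median and 75th percentile scaling, other detection and fold limits, and 1 probe per gene; limits of S/N, groups by brightness, probe sets apart and centring by chromosome were added after the data were seen. The counting rules were tested on simulated data. The software was scipy 1.17.1, pandas 2.3.3, matplotlib 3.10.9 and numpy 2.4.6 under Python 3.11.15.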

Additional observations from a re-analysis of the deposited data

How the results depend on the processing

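Against 1478 probes higher and 1103 lower, an S/N of at least 5 gave 643 and 517, detection on both arrays 242 and 148 (62.05% higher), no detection filter 3541 and 2433 (59.3%), a 1.5-fold limit 2468 and 2018 (55.0%), a 4-fold limit 447 and 257 (63.5%), and 1 probe per gene 616 and 463. An S/N of at least 10 on both arrays, added after the data were seen, gave 41 and 40 (50.6%). The share of calls that were higher, 57.3% as reported, was 44.9% in the deposited values, 52.6% after quantile normalization and 49.6% with median scaling, so its side of 50% depended on the scaling. Of 180 chromosome medians under other settings 1 moved by more than 0.1, that of chromosome 6 in the dimmest of 3 equal groups of genes, at -0.27, while chromosomes 2, 6 and 8 kept their direction in each setting run. Of 125 list medians 56 moved by more than 0.1. Among 296 values of the genes named by the rule, 7 of called genes fell below 2-fold under another scaling. They were those of Zfyve26, Car9, Mmp10 and Tap1, and none of their calls changed direction. The 296 also hold values of Mitf, Tyr, Dct, Pmel and Spp1, which were under 2-fold throughout. Of the other genes described as called by chromosome, by high S/N or by a pair of probes, Dnajb1, Enpp2, Entpd2, Srsf5, Srrm2, Wtap and 1 probe of Hoxa9 were below 2-fold under at least 1 scaling. Among genes detected on both arrays, centring each chromosome gave 116 higher and 67 lower in place of 118 and 70. No paired analysis was possible because each line has 1 labelled array, the second arrays of the deposited table matching no labelled sample and not being used. No replicate was left out for the same reason. Detection limits most single-gene values, since most calls rest on probes that 1 array did not detect. A difference between the duplicate cultures that the paper describes was not examined.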
